A study of Mus musculus with 8 samples.

Results

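The comparison set mouse embryonic fibroblasts (MEFs) in which OSKM, the transcription factors OCT4 (gene Pou5f1), SOX2, KLF4 and MYC, was switched on against the same cells left uninduced, with trimethylation of lysine 36 on histone H3 (H3K36me3) as the readout. The 4 samples, out of 8 in the series, were a chromatin immunoprecipitation (IP) and its input DNA from each condition, so each condition had 1 library and no replicate. All of the cells were i4F MEFs, which carry a doxycycline-inducible OSKM cassette, from a single E13.5 embryo (Clone 1), cultured for 72 h in a medium for induced pluripotent stem cells. The OSKM cells received doxycycline at 1 µg per ml by the labels, the MEF cells received none, and neither received vitamin B12. The other 4 samples, called here the B12 pair, had the same design with 2 µM vitamin B12 in both arms. The members were the protein-coding genes on chromosomes 1 to 19 of mm10 whose body, the longest transcript in GENCODE M21, was covered over at least 10% of its length by a called H3K36me3 peak in MEF or in OSKM. These were 9090 of 20807 genes, called marked genes below.

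H3K36me3 is laid down by SETD2, a methyltransferase that travels with elongating RNA polymerase II, and it builds up across the body of transcribed genes towards their 3′ end. The mark recruits readers that keep transcription from starting inside genes, guide DNA methylation and take part in splicing and DNA repair. Demethylases of the KDM2 and KDM4 families remove methyl groups from the same residue. During the first days of OSKM induction fibroblasts are known to alter their morphology, lose mesenchymal features and divide faster, before pluripotency genes are switched on.

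For each gene the deposited peaks gave a density: the pileup (the height of stacked sequencing fragments) of each peak, multiplied by the bases it covered, summed over the gene body, and divided by the body length and by the IP tags of the library in units of 1000000. Density is therefore per base and per 1000000 tags. A gene outside all peaks has a density of 0, which means that no peak was called, not that no fragment was there. The change of a gene was the log2 ratio of (density + 0.05) in OSKM over MEF. Its departure was that change minus the median change of all marked genes. With 1 library a side no test against replicates was possible, and a departure of 0.5 or more in size was used as a rule of size only. Where a 95% interval is given for 1 gene, it covers the counting error of the fragments and nothing else.

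The IP libraries held 32582688 tags in MEF and 33399267 in OSKM. Both had peaks on fibroblast genes. All 10 fibroblast markers, among them Col1a1, Col1a2, Fn1, Vim and Pdgfra, were marked genes with a called peak in each library. Their summed density was 5.85 in MEF and 3.52 in OSKM. The weakest, Twist2, was covered over 13.8% of its body in MEF and 4.06% in OSKM. None of the 6 blood, 5 endothelial, 5 keratinocyte and 5 skeletal muscle markers was marked, and the densities of these 21 genes stayed at or below 0.0299. Of 5 neural markers only Tubb3 was marked, and its whole body overlaps another annotated gene. Called peaks spanned 150.458 megabases in MEF and 91.825 in OSKM. With 1 IP library a condition, a weaker pull-down in OSKM cannot be told apart from less of the mark. Nor, in these bulk samples, can less of the mark in every cell be told apart from a smaller share of cells with the mark.

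H3K36me3 density was lower in OSKM than in MEF at 8961 of the 9090 marked genes, with a median log2 change of -0.72, which is a ratio of 0.609. The median density was 0.292 in MEF and 0.146 in OSKM. Around that common shift the genes spread widely. The 5th and 95th percentiles of the log2 change were -1.37 and -0.29, and only 129 genes had a higher value in OSKM. A departure of -0.5 or below was found at 782 genes, 8.6% of the marked genes, and one of 0.5 or above at 290 genes, 3.19%. In the B12 pair the median log2 change over the same genes was 0.05, so there the departures are measured around almost no change, and 2.22% and 2.61% of the genes passed the same limits downward and upward.

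**Figure D1:**
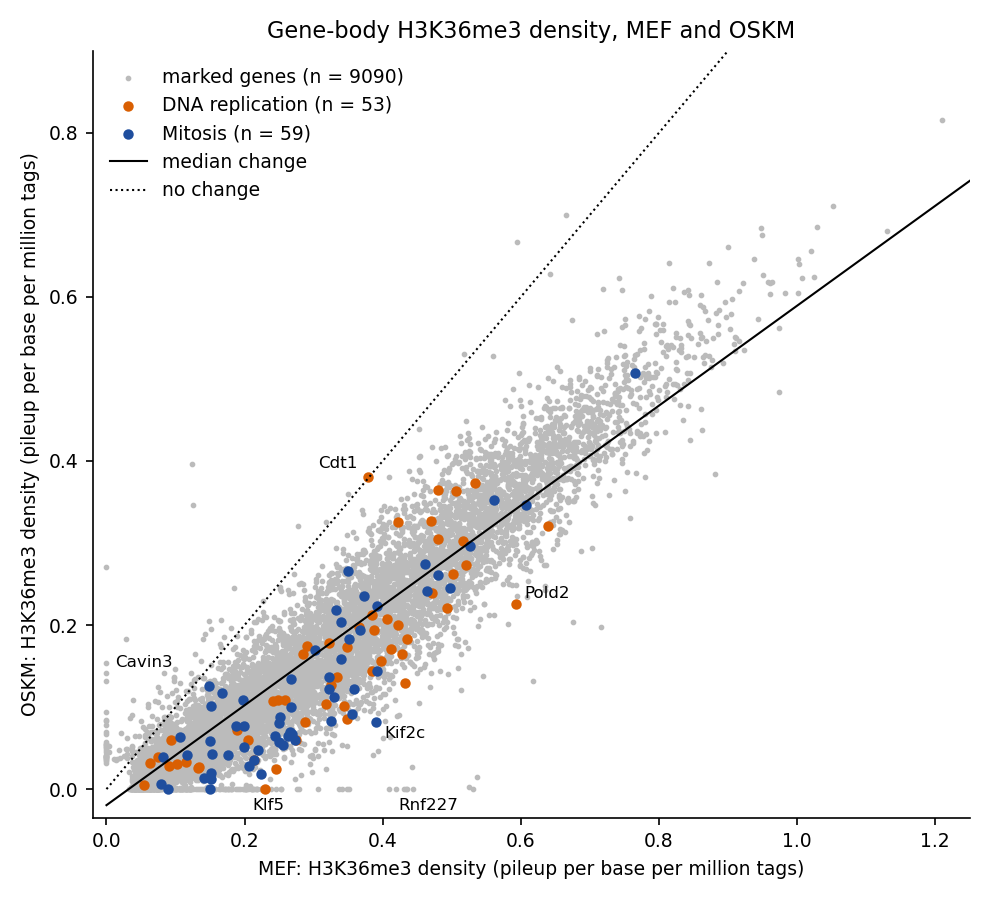
Gene-body H3K36me3 density (pileup per base per 1000000 IP tags) in MEF on the horizontal axis and OSKM on the vertical axis, 1 point per marked gene, with the Mitosis and DNA replication genes in colour. Most points lie below the dotted line of no change and around the solid line of the median change, many Mitosis genes fall under that line, and 2 genes lie outside the axes.

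The genes named for the furthest downward departures had no peak left in OSKM, which the way of choosing them favours. A named gene had to lie below the median over bases called in both libraries, where this was measurable. Of the 515 measurable genes that departed downward, 169 did. A gene without a peak in OSKM skips that check and has the lowest possible density. The absence of peaks in all 15 therefore cannot be separated from the selection. Among genes of at least 2 kb that passed it, the 15 largest downward departures lay between -2.56 and -1.67. Between 31.8% and 65.0% of these bodies was covered in MEF, and in OSKM none of the 15 had a single called base. They came from several functions. Rnf227, a RING finger gene, had a density of 0.434 in MEF. Pfn1 (chr11:70651850-70654644) encodes profilin 1, which feeds actin monomers to growing filaments, with a MEF density of 0.348 over 45.1% of its body. Myl9, a regulatory light chain of smooth muscle and nonmuscle myosin, stood at 0.216. Srsf2, a splicing factor, stood at 0.341, although 34.9% of its body overlaps another gene. Mrps12, a protein of the small mitochondrial ribosomal subunit, stood at 0.252, and Mrpl52, of the large one, was also among the 15. In the B12 pair 14 of the 15 genes were covered over at least 10% of their bodies in OSKM B12. Pfn1, for example, was covered over 50.6% in MEF B12 and 45.9% in OSKM B12. The exception was Rnf227, at 14.8% and 1.19%.

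Of the same 15 genes, 12 were shorter than 5 kb. The longest was Klf5 (chr14:99298691-99315036, a body of 16346 bases). Klf5 encodes a KLF-family zinc finger factor of proliferating and pluripotent cells. Its density was 0.224 in MEF, with 7 peaks over 49.9% of the body, and it had no peak in OSKM. Its departure was -1.74 (95% interval -1.86 to -1.61). In the B12 pair its cover was 57.1% in MEF B12 and 26.2% in OSKM B12, a departure of -0.98, so that Klf5 lay far below the median in both pairs.

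**Figure D2:**
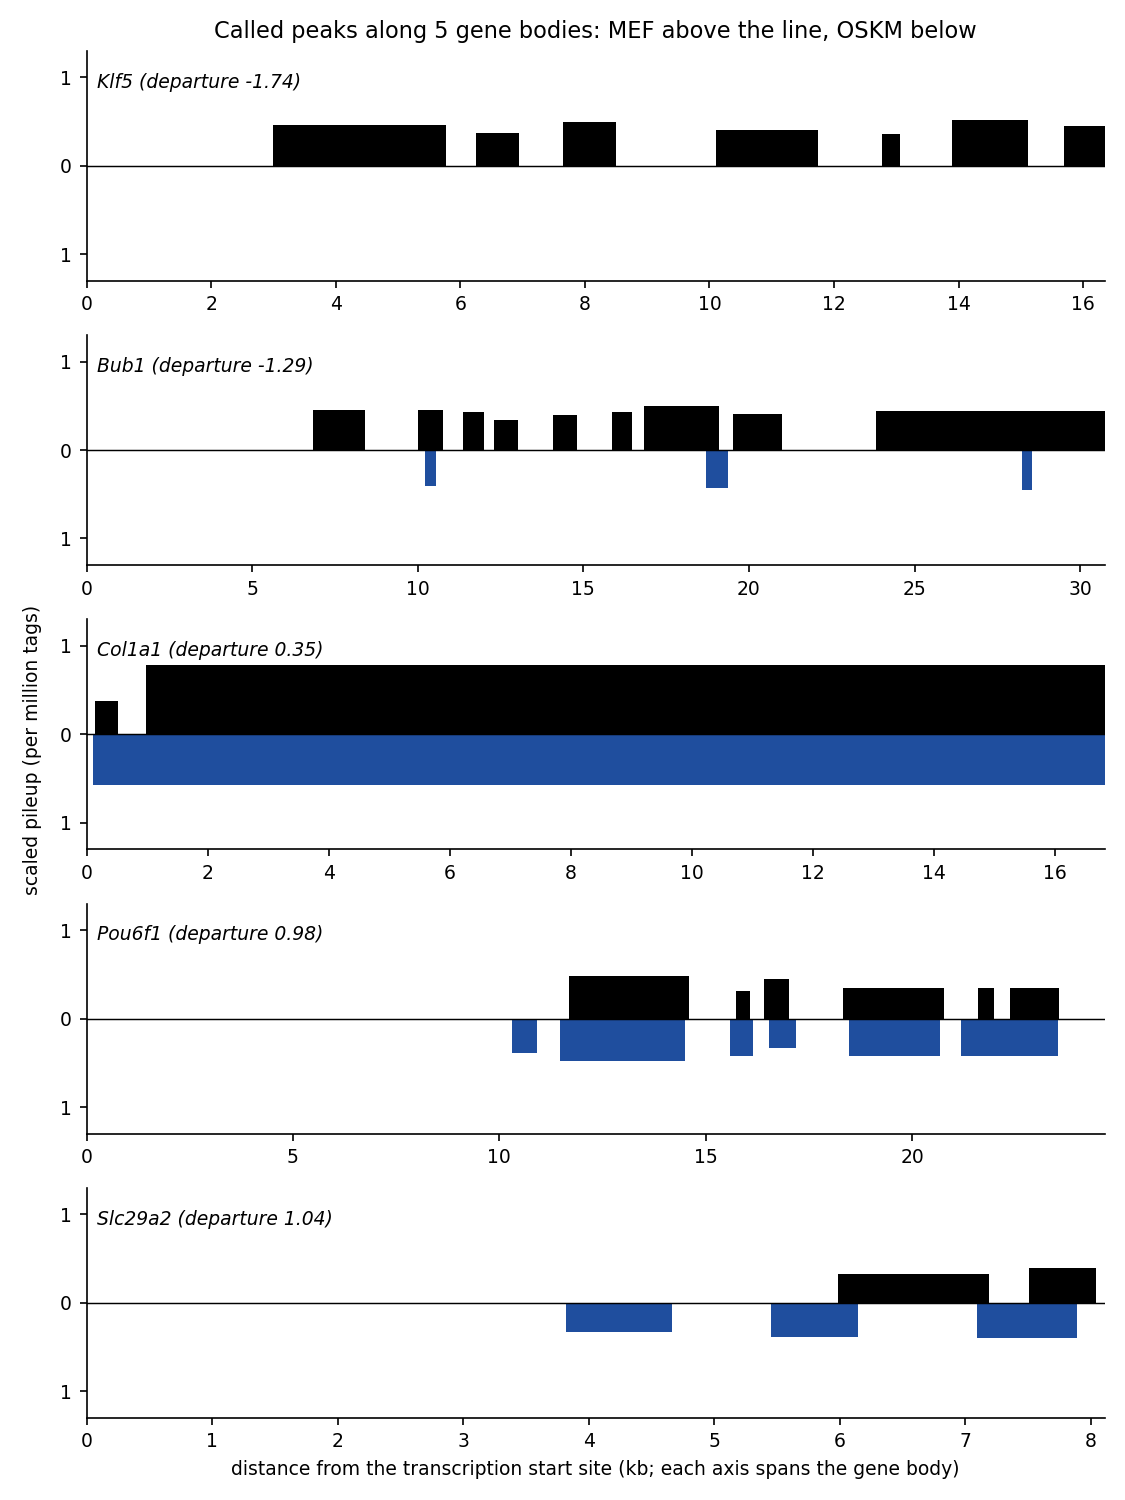
Called peaks along 5 gene bodies, with distance from the transcription start site in kb on the horizontal axis and pileup per 1000000 tags on the vertical axis, MEF upward in black and OSKM downward in blue. Klf5 has 7 peaks in MEF and none in OSKM, Bub1 keeps 3 short ones, Col1a1 stays covered almost throughout, and Pou6f1 and Slc29a2 have as many or more peaks in OSKM.

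Among 38 gene lists, the Mitosis list stood lowest. Mitosis genes build the spindle and kinetochores, hold the spindle checkpoint and divide the cell. Of its 62 genes 59 were marked, 23 departed downward by 0.5 or more and 1 upward, against 8.6% and 3.19% of all marked genes. The median density of these 59 genes was 0.265 in MEF and 0.088 in OSKM, and the median departure was -0.37. With B12 the median departure was -0.08, and 37 of the 59 genes lay below 0 in both pairs, as did 2940 of the 9090 marked genes (32.3%).

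The list spans genes far below the median and genes on it, as the spindle checkpoint members show. Bub1, a checkpoint kinase at the kinetochore, had 9 peaks over 50.9% of its 30744 bases in MEF and 3 over 4.24% in OSKM. Its density was 0.224 in MEF and 0.0183 in OSKM, a departure of -1.29 (95% interval -1.41 to -1.16). Ttk, the MPS1 checkpoint kinase, stood at 0.151 and 0.0128, a departure of -0.96, and Mad2l1, a checkpoint protein that holds back the anaphase-promoting complex, at 0.151 and 0.0197, a departure of -0.81. None of these 3 lay as low in the B12 pair, where their departures were -0.32, -0.15 and 0.21. Bub3, another checkpoint protein, stood at 0.608 and 0.347, a departure of -0.01, and its whole body overlaps another gene.

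Several mitotic motors also departed downward. Kif2c, a kinesin that takes microtubules apart, was covered over 79.5% of its body in MEF and 19.2% in OSKM, and its density was 0.391 and 0.0824. Kif20b, a kinesin of cytokinesis, stood at 0.206 and 0.0281. Kif11, which slides spindle poles apart, stood at 0.213 and 0.0352. Kif20b and Kif11 also lay below the median in the B12 pair, at -0.57 and -0.48. Over all 22 marked kinesin genes, a group gathered after values were seen, the median departure was -0.11. Here 5 genes were down (22.7%) and 0 up, against 8.6% and 3.19% of all marked genes. The 5 were Kif2c, Kif20b, Kif11, Kif23 and Kif15.

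Mitotic kinases and cyclins were split. Plk1, a kinase that drives mitotic entry, stood at 0.356 in MEF and 0.0914 in OSKM, a departure of -0.80. Ccnb1, cyclin B1, had a density of 0.0885 in MEF and was unmarked in OSKM, a departure of -0.75. Its departure in the B12 pair was -0.60. Ccnb2, cyclin B2, stood at 0.498 and 0.246, a departure of only -0.17, and Cdk1, the kinase both cyclins activate, stood at 0.481 and 0.261, a departure of -0.05 (95% interval -0.18 to 0.08). Aurka, the spindle pole kinase, lay above the median at 0.20. The 1 member past the upper limit was Cdca5, which encodes sororin, a guardian of sister chromatid cohesion. Cdca5 stood at 0.149 and 0.126, a departure of 0.54, but at -0.69 in the B12 pair.

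**Figure D3:**
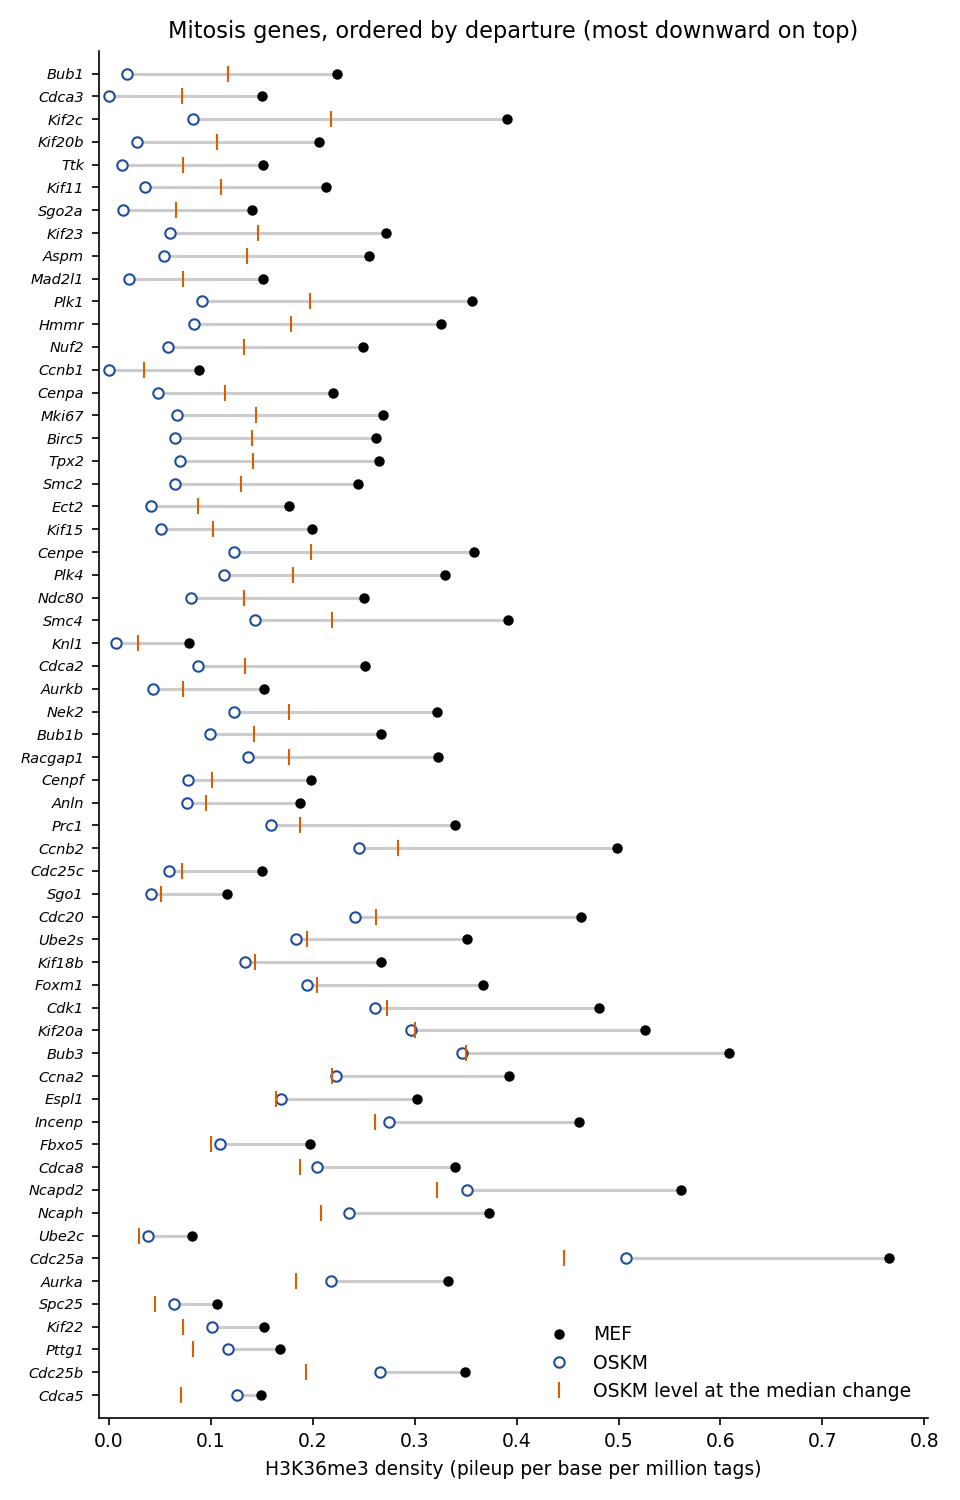
H3K36me3 density (pileup per base per 1000000 IP tags) of the 59 marked Mitosis genes in MEF (black) and OSKM (open), ordered by departure, with an orange tick at the OSKM level each gene would have at the median change. The open circle lies left of the tick for the genes from Bub1 down to Bub3 in this order, and the MEF level is the higher one at all 59 genes.

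Centromere protein genes overlap with that list. The 20 genes named Cenp were collected after values were seen and are in part shared with the Mitosis list. Of these, 16 were marked, 8 departed downward and 1 upward, against 8.6% and 3.19% of all marked genes. Their median departure was -0.50. Within bins of GC content 5 were down and 1 up around a median of -0.375, against 7.23% and 2.44% of all. Over bases called in both libraries 12 members could be measured, with a median departure of 0.119. That measure cannot register signal lost below the calling threshold in OSKM. Cenpq, a kinetochore subunit, had 4 peaks over 37.2% of its body in MEF and none in OSKM. It was low in the B12 pair too, at 42.1% in MEF B12 and 13.2% in OSKM B12, a departure of -1.13. Mki67, the proliferation marker Ki-67, stood at 0.269 in MEF and 0.0666 in OSKM, a departure of -0.74.

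3 measured facts belong beside the Mitosis values, and their part in the result was not tested. First, Mitosis bodies are poor in G and C: their median GC content was 43.9% against 46.4% over all marked genes, and departure moved with GC content in these libraries, as described further on. Measured against genes of like GC content, the median departure of the list was -0.22, with 18 genes down and 1 up, where 7.23% and 2.44% of all marked genes passed the limits. Second, downward departures depended on the MEF density. In 10 bins of equal gene number by that density they made up 3.96% of the lowest bin, where the pseudocount keeps most genes from reaching -0.5, then 15.6% of the fourth and 0.55% of the highest. Below the median density 574 of 4545 marked genes were down, and 208 of the 4545 others. For Mitosis genes these counts were 18 of 34 and 5 of 25. Last, over the bases called in both libraries the pileup of 56 measurable members had a median departure of 0.09, and 1 of the 20 measurable members that had departed downward lay below 0 there. This measure keeps only bases that passed the calling threshold in OSKM and so cannot register signal lost below it.

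The promoters of the Mitosis genes often held letters that the choice of the list did not use. The CHR element, here the letters TTTGAA, and the CCAAT box, here CCAAT, are known to bind the complexes that time late cell-cycle genes. Both were searched on either strand, each on its own, from 250 bases before to 50 bases after the RefSeq start in GRCm38.p6, for the 15687 genes with a promoter sequence. TTTGAA was present in 35 of 50 matched Mitosis promoters, 70.0%, against 11.8% of the 7150 matched promoters of marked genes, 15.4% of all promoters and 15.2% of the 46 matched DNA replication promoters. CCAAT was present in 72.0%, against 39.0% of the promoters of marked genes and 38.4% of all. The 22 matched Mitosis genes that departed downward held them at 63.6% and 68.2%, below the shares of the whole Mitosis list. Over all 607 matched genes that departed downward the shares were 14.7% and 39.2%, and over the 228 upward ones 11.8% and 42.5%. The E-box of MYC, CACGTG, was present in 8.0% of Mitosis promoters, 8.12% of all, 10.7% of those of marked genes, 9.06% of the 607 matched genes that departed downward and 13.6% of the 228 that departed upward. The 200 bases before the RefSeq start of 2 genes that departed downward, Kif11 (departure -0.91) and Mki67 (departure -0.74), and of Ccnb2 (departure -0.17) are printed below from RefSeq, with both motifs in capitals on either strand, since all 3 carry them whether or not the gene body departed. The Kif11 stretch is chr19:37376182-37376381 on the plus strand, that of Mki67 chr7:135716380-135716579 and that of Ccnb2 chr9:70421555-70421754, both on the minus strand.
Kif11: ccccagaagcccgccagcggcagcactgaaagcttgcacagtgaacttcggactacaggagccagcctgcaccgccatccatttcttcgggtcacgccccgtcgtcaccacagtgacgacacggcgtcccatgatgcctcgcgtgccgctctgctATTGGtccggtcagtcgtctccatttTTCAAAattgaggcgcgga
Mki67: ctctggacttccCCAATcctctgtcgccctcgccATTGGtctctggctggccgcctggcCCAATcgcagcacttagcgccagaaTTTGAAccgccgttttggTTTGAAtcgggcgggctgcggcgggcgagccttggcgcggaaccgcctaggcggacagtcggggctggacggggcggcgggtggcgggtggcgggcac
Ccnb2: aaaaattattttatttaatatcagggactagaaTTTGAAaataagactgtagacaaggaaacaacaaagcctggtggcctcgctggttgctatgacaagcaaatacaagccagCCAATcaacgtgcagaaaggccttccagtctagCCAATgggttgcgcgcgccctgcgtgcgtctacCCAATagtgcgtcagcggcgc

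DNA replication genes had the next lowest median. Of 57 genes 53 were marked, 13 departed downward (24.5%, against 8.6% of all marked genes) and 1 upward (1.89%, against 3.19%), and the median departure was -0.19. Within bins of GC content 9 were down and 1 up, against 7.23% and 2.44% of all, and the median was also -0.19. The median density was 0.348 in MEF and 0.156 in OSKM. With B12 the median was -0.02, and 24 of 53 genes lay below 0 in both pairs, beside that 32.3%. The lowest were Pole3, an accessory subunit of the leading-strand polymerase, which went from 0.23 in MEF to an unmarked body in OSKM, and Mcm10, a factor that loads polymerase at origins, with 0.246 and 0.0248. Pcna, the sliding clamp, stood at 0.274 and 0.06, a departure of -0.84, and Top2a, which untangles replicated DNA, at 0.432 and 0.129, a departure of -0.71.

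The 6 subunits of the replicative helicase, the ring that opens DNA, lay on both sides of the median. Mcm2, Mcm3, Mcm6 and Mcm7 had departures of 0.29, 0.36, 0.03 and 0.14. Mcm3 was covered over 83.5% of its body in MEF and 76.5% in OSKM. Mcm4 and Mcm5 were at -0.18 and -0.40. Cdt1, which loads the helicase, was the member above the upper limit, with 0.379 and 0.381, but its whole body overlaps another gene and the libraries carry no strand. The pileup over bases called in both libraries, with the same limit as above, had a median departure of 0.06 over 49 members.

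Of 60 genes of the interferon response and innate immunity 53 were marked and the median departure was -0.11. With 6 down (11.3%) and 1 up (1.89%), the list was near the 8.6% and 3.19% of all marked genes, and single members differed widely. Rsad2, which encodes the antiviral enzyme viperin, reached 0.223 in MEF and lost every peak over its 13707 bases in OSKM. Bst2, or tetherin, which holds budding virus at the membrane, had 0.187 and no peak. Ifih1, the RNA sensor MDA5, stood at 0.315 and 0.048, a departure of -1.18. Oasl1, an oligoadenylate synthetase-like gene, stood at 0.122 and 0.0196 and lay low in the B12 pair as well, at -0.79. Irf7, a transcription factor of the response, and Mavs, the mitochondrial adaptor of MDA5, had departures of 0.29 and 0.41. H2-K1 and H2-D1, class I molecules that present antigen, stood at 0.237 and 0.212 in MEF and had no peak in OSKM. These 2 genes are near-identical in sequence over parts of their length and only uniquely placed reads were kept, so their levels are uncertain.

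In the p53 and senescence list 7 of 32 marked genes (21.9%) departed downward and 0 upward, against 8.6% and 3.19% of all marked genes, while the median departure was 0.00. The 7 included Cdkn2b and Cdkn1b, which encode the cyclin-dependent kinase inhibitors p15 and p27, and the stress genes Gadd45b and Gadd45g. Cdkn1b stood at 0.0958 in MEF and 0 in OSKM, and Cdkn2b at 0.113 and 0.0048. Gadd45b stood at 0.202 and 0. With B12 these genes were not low together: the departures were -0.31 for Cdkn2b, 0.17 for Cdkn1b and -0.04 for Gadd45b. Cdkn1a, the p21 gene, was closer to the median, with 0.37 in MEF and 0.17 in OSKM and a departure of -0.23.

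The matrix that fibroblasts secrete had a median departure of -0.03 over 68 marked genes, with 10 of them down (14.7%, against 8.6% of all) and 0 up. Within bins of GC content 5 of the 68 were down and 1 up, near the 7.23% and 2.44% of all marked genes. Single genes differed. Lum, the collagen-binding proteoglycan lumican, stood at 0.33 in MEF and 0.066 in OSKM, with 59.6% and 14.3% of its body covered. Ltbp2, a latent TGF-beta binding protein of microfibrils, stood at 0.16 and 0.0179, a departure of -0.92, and Tnc, tenascin C, at 0.114 and 0.0138, a departure of -0.65. Ltbp2 and Tnc were both at -0.65 in the B12 pair. Col1a1, the main fibrillar collagen chain, was on the other side. It was covered over 96.5% of its body in MEF and 99.3% in OSKM, and its density was 0.751 and 0.573, a departure of 0.35. Igf1 and Hgf, growth factors of stromal cells, departed downward by -0.99 and -0.70.

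Few pluripotency genes could be measured. Of 57 genes in that list 17 were marked and 37 had no peak base in either library, among them Nanog, Sall4, Lin28a and Esrrb. No peak was called over Pou5f1 or Sox2 in either library. Klf4 and Myc, the other factors of the cassette, went in opposite directions. Klf4 stood at 0.218 in MEF and 0.0462 in OSKM, a departure of -0.76. Myc stood at 0.0473 and 0.0652, a departure of 0.96 (95% interval 0.59 to 1.34), with cover of 8.69% and 15.2%. With B12 the departures of Klf4 and Myc were -0.16 and -0.09. Both conditions carry the cassette, and fragments from its copies of the exons cannot be told apart from those of the native genes. Klf2, a related factor of naive pluripotency, stood at 0.324 and 0.125.

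Early epithelial genes, which are known to come on as fibroblasts are reprogrammed, were mostly without the mark: 30 of 46 had no peak base in either library, including Cdh1 and Epcam. The 8 marked members had a median departure of 0.255, or 0.10 within bins of GC content, and of -0.13 in the B12 pair. Cldn7, a tight junction claudin, was covered over 0.525% of its 3048 bases in MEF and 12.7% in OSKM, with an estimated 18.6 fragments in the latter, and had no peak in the B12 pair. Esrp2, an epithelial splicing regulator, stood at 0.249 and 0.182, a departure of 0.35.

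The genes that departed upward were short, rich in G and C and weakly marked. The 290 genes had a median body of 5094 bases against 21156 over all marked genes, a median GC content of 52.5% and a median density of 0.091 in MEF and 0.1 in OSKM. The 15 largest departures ranged from 1.54 to 2.65. Of these, 12 had no peak in MEF. Their cover in OSKM was between 10.6% and 35.6% of the body, resting on an estimated 10.9 to 62.3 fragments a gene. Cavin3, a coat protein of caveolae, stood at 0 in MEF and 0.141 in OSKM, but was covered over 43.2% in MEF B12 and 43.3% in OSKM B12. Junb, an AP-1 transcription factor of the immediate early response, stood at 0 and 0.051. Id2, an inhibitor of helix-loop-helix factors, stood at 0 and 0.042 and had no peak in the B12 pair.

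2 of the 15, Mcrip2 and Tnfrsf25, had the same pattern in the B12 pair. Mcrip2 had no peak in MEF or MEF B12 and was covered over 11.6% of its body in OSKM and 20.2% in OSKM B12. Tnfrsf25, the death receptor DR3, had no peak in MEF or MEF B12 and was covered over 13.3% in OSKM and 15.2% in OSKM B12.

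A few upward genes rested on broader marking. Pou6f1, a POU-domain transcription factor of 24667 bases, had 6 peaks in each library and stood at 0.129 in MEF and 0.165 in OSKM, a departure of 0.98 (95% interval 0.83 to 1.13). Over the bases called in both libraries its pileup departed by 0.47, and the B12 pair gave 0.69. Slc29a2, a nucleoside transporter, stood at 0.0746 and 0.106, a departure of 1.04, with 1.38 in the B12 pair. Chrd, which encodes the BMP antagonist chordin, stood at 0.116 and 0.107, a departure of 0.64, with 1.35 in the B12 pair. Rcor2, a partner of the LSD1 demethylase, stood at 0.103 and 0.113, a departure of 0.80, with 0.67 in the B12 pair. Unlike Klf5 and Cenpq, these genes stayed near their MEF level or above it while the median gene stood lower.

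Biosynthetic lists had medians slightly above 0, and these depended on the measure. The 34 marked nucleotide synthesis genes had a median departure of 0.13 (0.12 within bins of GC content). Of these, 3 were down (8.82%) and 1 up (2.94%), near the 8.6% and 3.19% of all marked genes. Rrm2, a subunit of ribonucleotide reductase, stood at 0.257 in MEF and 0.216 in OSKM and was the member above the limit, at 0.51, while Tyms, thymidylate synthase, lay at -0.52. The 28 chaperone genes had a median of 0.09 (0.15 within bins of GC content) with 0 down and 1 up (3.57%), beside those same shares. Cct2, a subunit of the cytosolic chaperonin, stood at 0.774 and 0.562. The 119 ribosome biogenesis genes had a median of 0.09, with 4 down (3.36%) and 1 up (0.84%), against 8.6% and 3.19% of all marked genes. Their median density was 0.507 in MEF and 0.317 in OSKM. Within bins of mean density the chaperone and ribosome biogenesis medians were 0.009 and 0.033. Over bases called in both libraries they were -0.093 and -0.033, and with peaks of −log10 q of at least 5 they were -0.058 and -0.794. Glycolysis enzymes were at 0.11, but at -0.004 within bins of GC content.

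Among 74 cytosolic ribosomal protein genes 11 departed downward (14.9%) and 2 upward (2.70%) around a median of 0.03, and within bins of GC content 11 were down and 0 up around -0.07. Among 72 mitochondrial ribosomal protein genes 10 were down (13.9%) and 2 up (2.78%) around a median of 0.00. The downward shares of both stood above the 8.6% of all marked genes and the upward shares near the 3.19%. Departures in both directions were, however, commoner among short bodies. In 10 bins of equal gene number by body length, 20.2% were down and 15.4% up in the shortest (median 3390 bases). The second bin (6538.5 bases) had 10.9% and 6.70%, and the third (9988.5 bases) 8.37% and 2.64%. The median body was 3328.5 bases in the cytosolic list and 8055.5 in the mitochondrial one. The part of length was not tested. Rps6 stood at 0.4 in MEF and 0.0625 in OSKM. Among 69 subunits of oxidative phosphorylation 7 departed in each direction (10.1%), against 8.6% downward and 3.19% upward of all marked genes. Within bins of GC content 6 were down and 5 up, against 7.23% and 2.44%. Their median body was 7456 bases. Cox5b, a subunit of cytochrome oxidase, stood at 0.282 and 0.0175, whereas Cox8a, of the same enzyme, stood at 0.143 and 0.189. Many of these genes have near-identical processed copies elsewhere in the genome, and only uniquely placed reads were kept.

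The list of enzymes that write and erase the mark was short. Of 19 genes 14 were marked, 0 departed in either direction, and the median was -0.09 (0.03 within bins of GC content). With 8.6% and 3.19% of all marked genes past the limits, 0 of 14 does not set these enzymes apart. Setd2, the trimethylating enzyme, stood at 0.417 in MEF and 0.184 in OSKM, a departure of -0.28 (95% interval -0.35 to -0.22), or -0.09 among genes of like GC content. Kdm4a and Kdm4b, demethylases of the residue, lay at 0.14 and 0.29, and Kdm4c at -0.38. For the B12 pair Setd2 gave -0.08. In the methionine and folate cycles, which supply methyl groups, 4 of 34 marked genes departed downward (11.8%) and 2 upward (5.88%), near the 8.6% and 3.19% of all marked genes. Cd320, the receptor that takes up vitamin B12, stood at 0.10 in MEF and had no peak in OSKM, and Shmt2, the mitochondrial serine hydroxymethyltransferase, stood at 0.18 and 0.196, a departure of 0.81. Among 33 marked polycomb and DNA methylation genes 4 were down (12.1%) and 2 up (6.06%), again near those shares. Bmi1, of the PRC1 complex, stood at 0.119 and 0, and Suz12, of PRC2, at 0.443 and 0.152, while Cbx2, also of PRC1, stood at 0.281 and 0.252.

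In all, 32 of the 38 lists had a median departure within 0.1 of 0. Below that range lay Mitosis, DNA replication and the interferon list, and above it nucleotide synthesis, glycolysis and the 8 early epithelial genes. No list had a median as far from 0 upward as Mitosis had downward. No list was tested against chance.

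**Figure D4:**
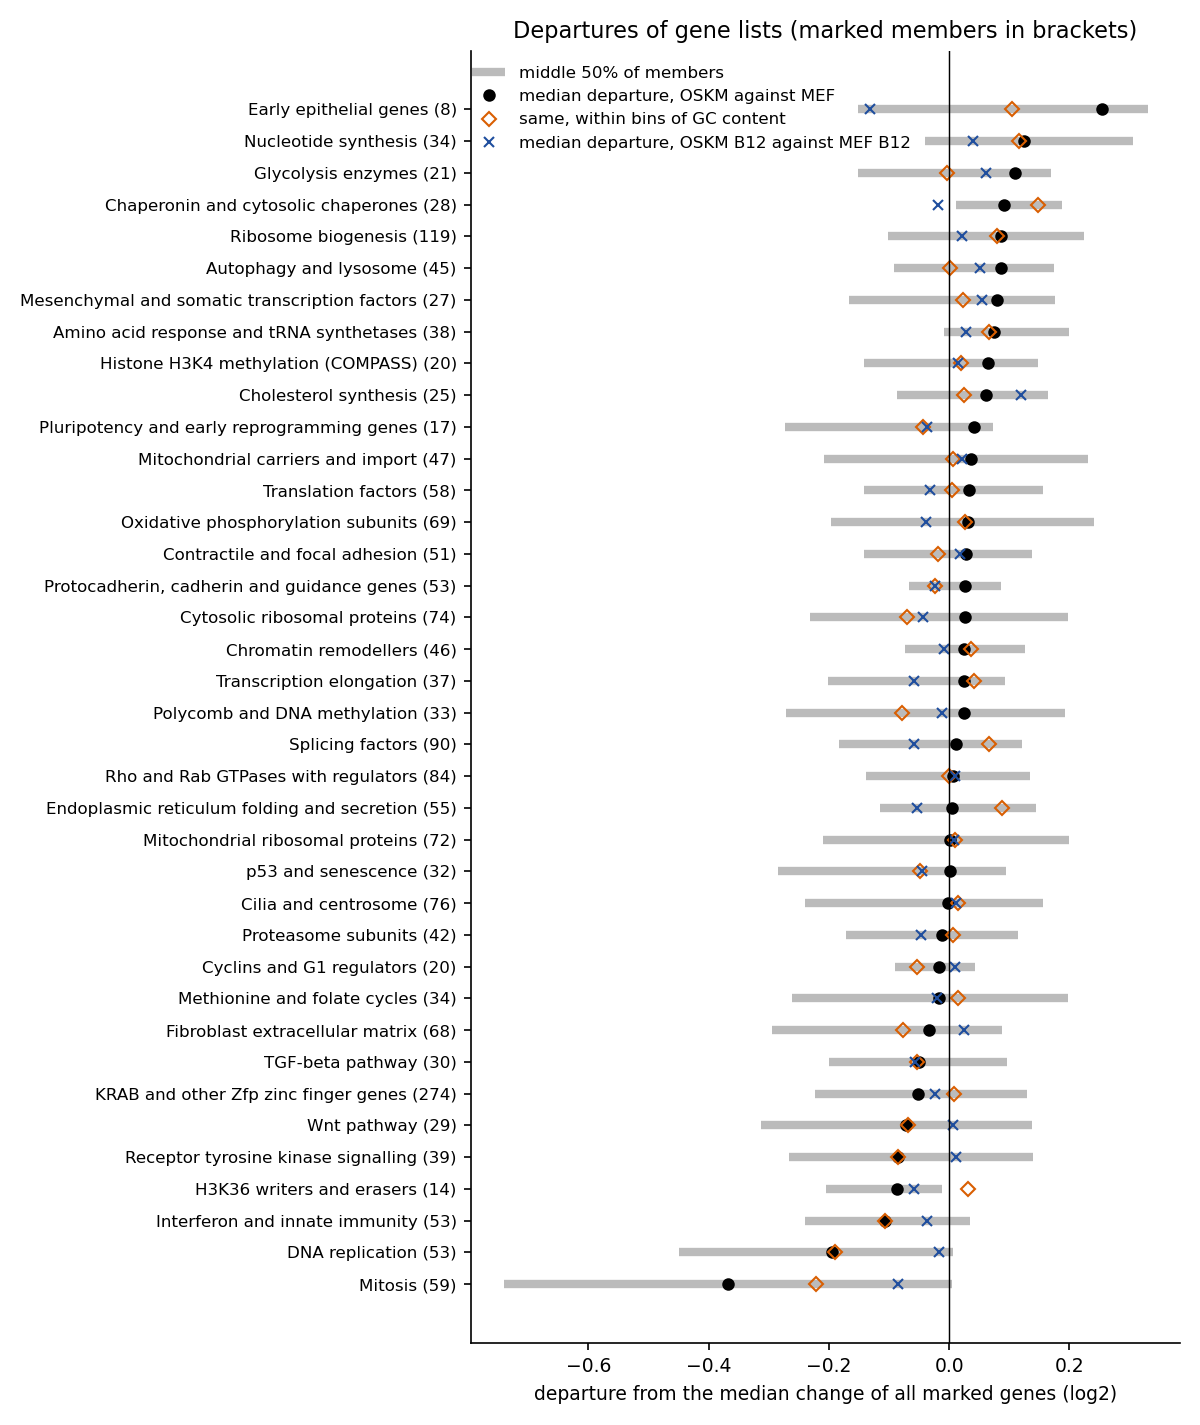
Median departure (log2) of each gene list in OSKM against MEF (black points), the same within bins of GC content (orange diamonds) and in the B12 pair (blue crosses), with grey bars for the middle 50% of members. Mitosis lies at -0.37 and DNA replication at -0.19, and 32 of 38 black points lie within 0.1 of 0.

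Across genes, departure moved with the base composition of the body. In 10 bins of equal gene number the median departure went from -0.29 in the bin with a median GC content of 38.8% to 0.18 in that with 55.8%. Spearman's rho between departure and GC content was 0.45 over the 9090 genes, which share libraries and chromosomes and are not independent, so the value is a description. In the bin of lowest GC content 21.5% of the genes departed downward and 0.55% upward, while in the highest the shares were 7.92% and 13.1%. The B12 pair went in the same direction over a narrower range, with medians from -0.16 to 0.15 and a rho of 0.52. Over the bases called in both libraries rho was -0.05, with the limit on such bases given above. Whether the composition of the fragments, the depth of the libraries or the genes themselves lie behind it was not tested.

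2 stretches of called intron show what the ends of that range look like, with G and C in capitals. The Cenpq stretch lies inside a peak called in MEF (bases 40927476 to 40929500), at chr17:40928426-40928545 on the minus strand in GRCm38.p6, and is 27.5% G and C. Cenpq had no peak in OSKM. The Mcrip2 stretch lies in a peak called in OSKM, at chr17:25864356-25864475 on the minus strand, and is 62.5% G and C. Mcrip2 had no peak in MEF.
Cenpq: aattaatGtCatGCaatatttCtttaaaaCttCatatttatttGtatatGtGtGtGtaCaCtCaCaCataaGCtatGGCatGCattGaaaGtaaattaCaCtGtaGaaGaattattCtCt
Mcrip2: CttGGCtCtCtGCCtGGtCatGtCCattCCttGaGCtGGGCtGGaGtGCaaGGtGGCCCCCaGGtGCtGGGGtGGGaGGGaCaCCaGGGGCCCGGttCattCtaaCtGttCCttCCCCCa

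**Figure D5:**
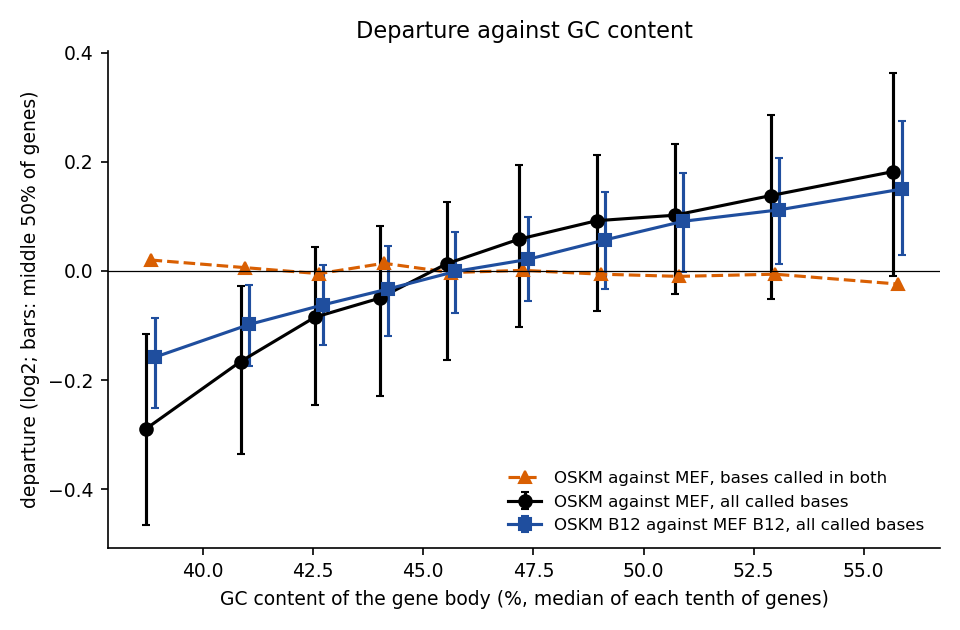
Median departure (log2) in 10 bins of genes by GC content of the body (percent), for OSKM against MEF and for the B12 pair over all called bases, with bars for the middle 50% of genes, and for OSKM against MEF over bases called in both libraries. The first 2 lines climb from below 0 to above 0, and the last stays within 0.03 of 0.

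Chromosomes followed their composition. The median departure was lowest on chromosome 13, at -0.071, where the median GC content of marked genes was 43.1%, and highest on chromosome 7, at 0.056, with 49.6%. Within bins of GC content the 19 medians lay between -0.027 and 0.017. On chromosome 17, which holds Cenpq, Mcrip2 and the H2 genes, 9.83% of the marked genes passed the limit downward and 5.23% upward.

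The median cover of a marked gene was 50.5% in MEF and 31.3% in OSKM. For the bases called in both libraries, measurable at 8411 genes with at least 500 such bases, the median ratio of scaled pileup was 0.78, against 0.609 for the whole-body density. Such bases had to pass the calling threshold in OSKM, so signal that dropped below it is left out of this ratio, which cannot show how much of the difference lay in height. At a −log10 q of 5 or more there were 10010 peaks in MEF and 2166 in OSKM. Of the 782 genes that departed downward 515 could be measured there, and 169 of these lay below the median of that measure, whereas among the upward genes 152 of 197 lay above it. The first, middle and last parts of the gene body, each of equal length, had mean densities of 0.139, 0.355 and 0.467 in MEF and 0.066, 0.192 and 0.269 in OSKM. Their ratios were 0.475, 0.541 and 0.577, so the 5′ part was lowest. Genes that departed downward were low in all parts, with ratios of 0.203, 0.189 and 0.216. In the Mitosis list the ratios were 0.384, 0.392 and 0.478. The number of peaks per marked gene stayed close, at 6.19 in MEF and 6.55 in OSKM. Peaks were shorter in OSKM, with a median of 773 bases against 958 in MEF. Nsd1, an H3K36 dimethyltransferase, had 14 peaks in MEF and 41 in OSKM while its cover went from 82.2% to 53.5%.

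At 259 of the 9029 genes covered over 10% or more in MEF no peak base was called in OSKM. The reverse was found at 31 of the 7553 genes covered over 10% or more in OSKM. The 259 genes were weakly marked and short, with a median cover of 19.5% and a median body of 4674 bases. In the B12 pair 204 of them were again covered over 10% in MEF B12, but only 35 had no peak base in OSKM B12. Of the 31 genes gained, 17 were covered over 10% in OSKM B12 and 11 had no peak base in MEF B12. The same B12 counts over all marked genes are not given here, so nothing particular to these genes is read from them.

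Within this series the B12 pair gives the only other view of H3K36me3 under OSKM induction, with vitamin B12 added to both arms. Of the 782 genes that departed downward 538, or 68.8%, lay below the median in the B12 pair too, and 78, or 9.97%, passed -0.5 there, against 2.22% of all marked genes, while 41 passed 0.5 in the opposite direction. Of the 290 upward genes 204, or 70.3%, lay above it, and 61, or 21.0%, passed 0.5, against 2.61%, while 13 passed -0.5. Spearman's rho between the 2 sets of departures was 0.36, and 0.14 once both were taken within bins of GC content. The 2 pairs share no library.

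After that step 53 genes of at least 2 kb and less than 50% overlap passed -0.5 in both pairs, and 32 passed 0.5. In OSKM against MEF alone, 7.23% and 2.44% of all 9090 marked genes passed these limits within bins of GC content. The matching shares of the B12 pair are not given here, so no excess is read from the 53 and 32. The 53 included single contractile and matrix genes beside those named above, which do not stand for their lists. In the contractile and focal adhesion list 4 of 51 marked genes were down (7.84%) and 0 up, against 8.6% and 3.19% of all. Its median departure was 0.028, and 0.018 in the B12 pair. The matrix list had a median of 0.025 in the B12 pair, with 2 genes down and 2 up. Cthrc1, a secreted collagen triple helix protein, stood at 0.211 in MEF and 0 in OSKM and at 36.2% and 11.6% cover in the B12 pair. Acta2, smooth muscle actin, stood at 0.235 and 0.0606, a departure of -0.65 and of -0.57 in the B12 pair. Itga11, a collagen receptor, stood at 0.227 and 0.0619, with -0.59 and -0.65. Sox9, a transcription factor of cartilage, stood at 0.173 and 0.0437, with -0.53 in both. Flt1, a VEGF receptor, stood at 0.101 and 0.0082, with -0.66 and -0.78. The complement gene C3 stood at 0.091 and 0.006, with -0.62 and -0.89. The 32 held Apoe, the lipid carrier, at 0.0607 and 0.103, with 1.19 and 0.81, and the lysosomal enzymes Arsa and Naglu, with departures of 1.13 and 0.76 and of 0.77 and 1.01 in the B12 pair. All of these genes were picked from the values of both pairs and are a description only.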

How the data were processed

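H3K36me3 ChIP and input libraries of MEF and OSKM cells were compared, with the B12 pair beside them. The labels call the IP H3K36m3, while the extract protocol names its antibody as H3K3me3 (Cell Signaling). Per the study's methods and the submitters' processing notes, the authors aligned reads with Bowtie 0.12.9, keeping uniquely placed reads only, and called broad peaks against the matched input with MACS2 2.2.6 at an effective genome size of 3209286105. The build is mm10. The deposited peak lists give each peak's pileup, a coverage signal that the authors did not scale for depth. They also give the fold enrichment over input, a ratio, with −log10 p and −log10 q values, as MACS2 wrote them per the file headers.

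From these files the pileup was scaled by the IP tags in the file headers and summed over 20807 protein-coding gene bodies with Python 3.11, numpy 2.4.6, pandas 2.3.3 and scipy 1.17.1, with a pseudocount of 0.05 before the log2. IP tags ranged from 29046913 to 33399267 and input tags from 34524486 to 36150875. Fragments per gene were estimated from pileup and the fragment length of 288 to 292 bases, and intervals cover their counting error only. The steps were tested on simulated data.

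The members and the 38 lists were chosen with earlier results of these data known. Another 5 lists (Cenp genes, kinesins, interferon-induced Ifi, Oas, Slfn and Gbp genes, class I H2 genes and solute carriers) and the bins of GC content were added after values were seen. The 15 genes named in each direction had the largest departures among bodies of at least 2 kb that shared under 50% with other genes, had an interval excluding 0 and departed the same way by covered share and, where measurable, by pileup over shared bases. Other named genes are list members with extreme values or a described role, and Nsd1, the genes that passed both pairs and the kinesins named were chosen after their values were seen. Of the added lists, the Ifi, Oas, Slfn and Gbp genes had 28 of 65 marked and a median departure of -0.34. Among these 28, 10 were down (35.7%) and 1 up (3.57%), against 8.6% and 3.19% of all marked genes. Within bins of GC content 8 were down and 1 up around a median of -0.25. The class I H2 genes had 4 of 18 marked with 2 down, and the solute carriers had 130 of 327 marked and a median of 0.04. Bodies that overlap other genes were kept, and the libraries carry no strand.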

Additional observations from a re-analysis of the deposited data

Results flagged for a closer look

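The median log2 change of gene density was -0.716 for OSKM against MEF and 0.054 for OSKM B12 against MEF B12 over the same 9090 genes. Their middle 50% of genes did not overlap, from -0.935 to -0.552 in the first pair and from -0.056 to 0.166 in the second. The 8 marked early epithelial genes had a median departure of 0.255 in the pair without B12 and -0.131 in the pair with it, where 5 of the 8 lay below 0. With 1 library a condition, neither difference between the pairs was tested.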

How the results depend on the processing

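The median log2 change of -0.72 stayed below 0 under all 13 other ways of measuring density or choosing genes. It was -0.874 with a pseudocount of 0.01, -0.451 with 0.2, -2.274 with peaks of −log10 q of at least 5, -0.358 for pileup over bases called in both libraries, -0.526 for the covered share, -0.849 for fold enrichment in place of pileup, -0.725 for bodies at least 25% covered, -0.700 for genes marked in the B12 pair and -0.727 for bodies that overlap no other gene. The count of downward departures (782) was 1691, 104, 1998, 18, 1754 and 1719 under the first 6 of these in the same order, and the upward count (290) was 529, 95, 2070, 42, 554 and 664. The upward count was also 190 with at least 4 exons, 155 with at least 25% covered and 459 for genes marked in the B12 pair. Counting fewer than 500 bases as no peak, 495 genes lacked a peak in OSKM alone and 74 in MEF alone. Of the 6 lists with a median 0.1 or more from 0, early epithelial genes kept their sign in all 13 settings that gave a value, and the others changed it as follows: Mitosis at 0.051 and nucleotide synthesis at -0.022 with −log10 q of at least 5; Mitosis at 0.088, DNA replication at 0.057 and glycolysis at -0.047 over shared bases; interferon at 0.030 by covered share; and glycolysis at -0.004 within bins of GC content, an alternative chosen after seeing the data. Each of the 32 lists closer to 0 had the opposite sign in at least 1 of 15 settings, so no direction is read from them. The causes were not tested, except that shared bases leave out genes without a peak in 1 library by construction. No paired analysis was possible because a condition holds a single library. Peaks with −log10 q of at least 5 numbered 2166 in OSKM and 10010 in MEF, and a gene without a peak can still carry the mark below the calling threshold.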
